A study of Homo sapiens with 14 samples.

Results

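The endocrine lineage transcription factors are the DNA-binding proteins that carry a pancreatic progenitor into the hormone-producing islet lineages. They were taken here as 9 named genes (NEUROG3, NEUROD1, NKX2-2, PAX4, PAX6, ISL1, INSM1, RFX6 and FEV), chosen by gene symbol from the 60624 gene identifiers listed in every library, and all 9 were found once. RNA-seq was performed on 14 libraries in 9 groups, all from MEL1, an established human embryonic stem cell line in which, per the study's methods, 1 copy of the insulin gene carries a GFP reporter. Undifferentiated cells (hPSC), definitive endoderm (DE), late pancreatic progenitors (PP2) and beta-like cells made from stem cells without expansion (SC-β) gave 1 library each and form batch 1 of the labels. Expandable pancreatic progenitors at passage 9 (ePP-P9) and passage 21 (ePP-P21) and the beta-like cells made from expandable progenitors (ePP-β) gave 2 libraries each and form batch 2. Pancreatic progenitors passaged in medium with EGF, bFGF and a TGFβ inhibitor and then given DMSO or 1 μM I-BET151 for 7 days gave 2 libraries each and form batch 3. I-BET151 blocks the BET bromodomain proteins, which read acetylated histones. The ePPs were kept on feeder cells in the same medium with I-BET151 added at 1 μM, so every ePP library comes from cells held in the drug. The passage from which ePP-β cells were made is not given in the labels, and everything rests on 1 cell line.

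In the embryonic pancreas, Notch signaling and the ID proteins hold progenitors in an undifferentiated state, and cells that escape this hold switch on NEUROG3 for a short time. NEUROG3 is a basic helix-loop-helix activator that starts the endocrine program and is then silenced, while its targets NEUROD1, INSM1, NKX2-2, PAX4 and RFX6 continue the program and ISL1 and PAX6 maintain it in hormone-producing cells. FEV, an ETS factor also known from serotonin neurons, marks a later step between NEUROG3-positive precursors and hormone-positive cells. Levels are given in TPM, a scale that divides reads by transcript length and sets each library to the same total, so genes can be compared within a library, although TPM keeps no record of depth and the depth of each library is unknown. These are bulk samples, in which fewer cells of a type and less RNA per cell cannot be told apart.

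The labels were checked first against marker genes. The pluripotency genes POU5F1, NANOG and SOX2 summed to 3764 TPM in hPSC and to at most 35.5 TPM in any progenitor library, and the endoderm list summed to 1834 TPM in DE. PDX1 and NKX6-1, which define pancreatic progenitors, lay at 74.4 to 251 TPM and 23.5 to 446 TPM in the 9 progenitor libraries, and INS lay at 10916 to 20657 TPM in the 3 beta-like libraries. No 2 libraries held identical values. The listed values summed to 908685 to 985497 TPM per library, and the 37 mitochondrial genes were listed at 0 in each of them. The labels do not say whether libraries of a group came from separate cultures, so p-values measure only the spread between these samples.

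The genes are spread over 7 chromosomes of GRCh38. NEUROG3 lies at chr10:69571698-69573422 (minus strand, 2 exons), NEUROD1 at chr2:181668295-181680827 (minus, 2 exons) and FEV at chr2:218981087-218985184 (minus, 3 exons). NKX2-2 lies at chr20:21511017-21514064 (minus, 2 exons) and the single-exon INSM1 at chr20:20368104-20370949 (plus). PAX4 lies at chr7:127610292-127618142 (minus, 12 exons), PAX6 at chr11:31784779-31817961 (minus, 14 exons), ISL1 at chr5:51383448-51394730 (plus, 6 exons) and RFX6 at chr6:116877212-116932161 (plus, 19 exons). Exon counts are those of the canonical transcript in GENCODE release 44. The RefSeq promoter table (GRCh38.p14) held 7 of the 9 genes, and the 250 bases before the annotated start were searched on both strands. The E-box CANNTG, the letters recognized by basic helix-loop-helix proteins such as NEUROG3 and NEUROD1, occurred in 2 of the 7 windows, against 61.8% of all 34786 windows in the table. Both matches had the letters CAGCTG, a form held by 13.96% of all windows, at 150 bases before the start of NEUROG3 and at 144 bases before the start of ISL1. The 2 windows are shown because they carry these matches, which stand in capitals.
NEUROG3 (chr10:69573423-69573672, minus strand): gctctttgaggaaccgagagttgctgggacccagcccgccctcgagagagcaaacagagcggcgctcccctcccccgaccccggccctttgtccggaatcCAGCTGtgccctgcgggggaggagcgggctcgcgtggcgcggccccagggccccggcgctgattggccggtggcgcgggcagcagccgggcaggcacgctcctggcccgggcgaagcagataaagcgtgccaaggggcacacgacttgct
ISL1 (chr5:51383198-51383447, plus strand): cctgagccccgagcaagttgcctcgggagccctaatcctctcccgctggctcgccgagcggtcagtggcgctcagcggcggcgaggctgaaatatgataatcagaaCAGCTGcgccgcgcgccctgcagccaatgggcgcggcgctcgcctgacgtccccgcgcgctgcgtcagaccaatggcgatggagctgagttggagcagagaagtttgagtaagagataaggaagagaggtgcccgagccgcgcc
No E-box was found in the windows of NEUROD1, NKX2-2, PAX4, PAX6 or FEV, which says only that these letters are not in those 250 bases.

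The windows also differed in base composition. PAX4 had a single CG dinucleotide and 58.0% G + C, whereas the other 6 windows had 16 to 29 CG dinucleotides and 62.8 to 72.0% G + C. Over all windows the median was 11 CG dinucleotides, and 14.7% of windows had 1 or none. The PAX4 window is shown beside that of FEV, the richest of the 7, with every CG in capitals.
PAX4 (chr7:127618143-127618392, minus strand): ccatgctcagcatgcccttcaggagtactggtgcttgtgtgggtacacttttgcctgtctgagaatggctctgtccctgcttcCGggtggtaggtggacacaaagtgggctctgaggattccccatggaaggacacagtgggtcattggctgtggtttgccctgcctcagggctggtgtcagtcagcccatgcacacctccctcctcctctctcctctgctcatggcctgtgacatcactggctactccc
FEV (chr2:218985185-218985434, minus strand): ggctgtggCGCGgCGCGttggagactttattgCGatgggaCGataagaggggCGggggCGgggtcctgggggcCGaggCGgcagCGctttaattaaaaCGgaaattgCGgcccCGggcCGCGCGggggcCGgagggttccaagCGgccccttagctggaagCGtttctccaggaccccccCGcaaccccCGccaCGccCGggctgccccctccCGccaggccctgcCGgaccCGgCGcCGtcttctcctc
PAX4 also held the N-box CACNAG, the letters bound by HES repressors, 3 times, and PAX6 held it 1 time, against 32.0% of all windows with at least 1 match. NKX2-2 was the only one of the 7 with the TATA box letters TATAAA, at 32 bases before the RefSeq start, against 10.8% of all windows. The RefSeq starts used for NKX2-2 and PAX6 lie 1104 and 1363 bases from the start of the canonical transcript, so other starts of these genes have other windows.

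**Figure D1:**
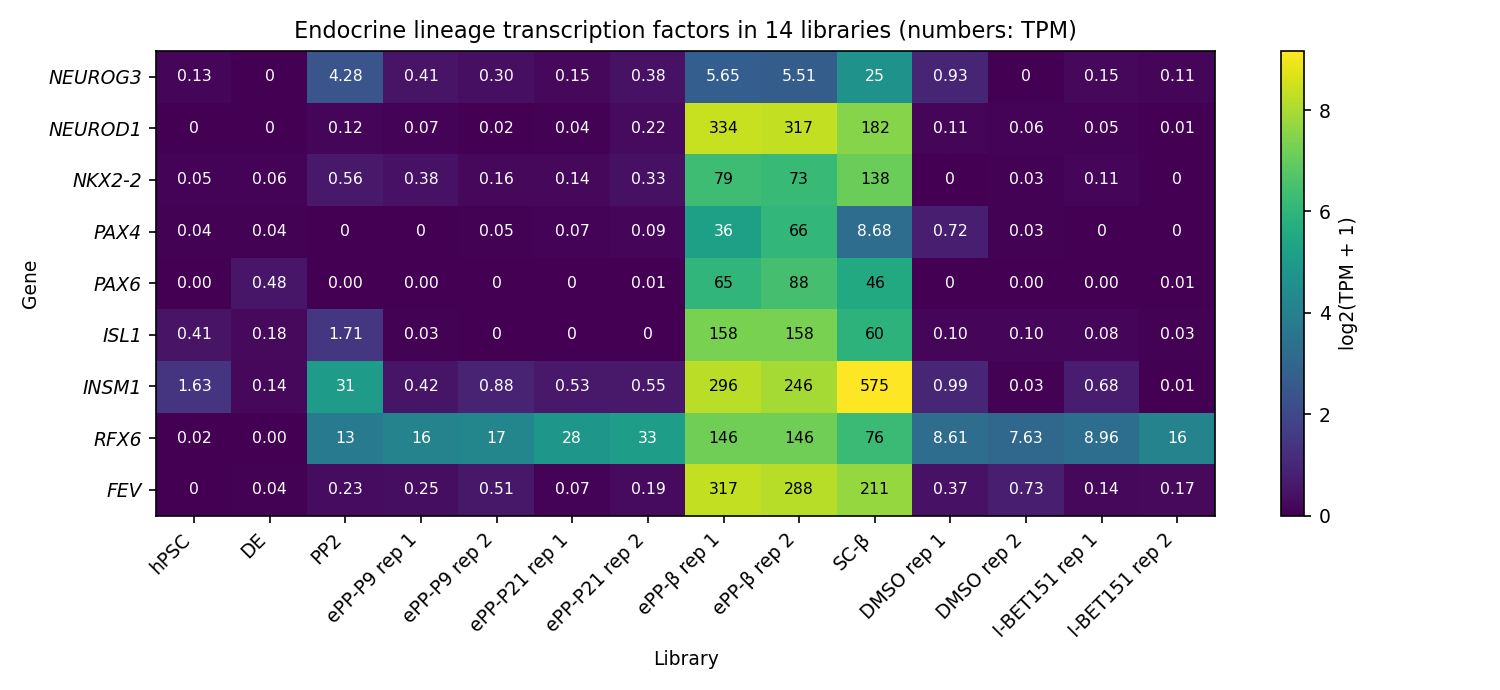
Level of each of the 9 endocrine lineage transcription factors (rows) in each of the 14 libraries (columns), colored by log2(TPM + 1) and printed in TPM (0 is an exact 0 in the file, 0.00 a value that rounds to it). The 3 beta-like libraries hold the high values for every gene, RFX6 is the only row above 1 TPM in every pancreatic progenitor library, and PP2 also holds INSM1 (31.4 TPM), NEUROG3 (4.28 TPM) and ISL1 (1.71 TPM).

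The 9 factors together made up 2.29 TPM in hPSC and 0.948 TPM in DE. The sum was 51.5 TPM in PP2, 17.9 to 35.2 TPM in the 4 ePP libraries and 8.62 to 16.6 TPM in the 4 DMSO and I-BET151 libraries. In beta-like cells it was 1435 and 1386 TPM in the ePP-β libraries and 1322 TPM in SC-β. In hPSC only INSM1 exceeded 1 TPM, at 1.63 TPM, and in DE none did, PAX6 being the highest at 0.484 TPM. In the ePP libraries RFX6 alone made up 90.1 to 96.5% of the sum, whereas in the ePP-β libraries the highest gene, NEUROD1, made up 23.3% and 22.9%.

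In the pancreatic progenitors, 5 of the 9 factors stayed under 1 TPM in all 9 libraries, 1 stayed above it in all 9, and 3 were above it in PP2 only. NEUROG3, the initiator, was at 4.28 TPM in PP2. The ePP-P9 libraries held 0.409 and 0.297 TPM and the ePP-P21 libraries 0.153 and 0.376 TPM. It was at 0.935 TPM in 1 DMSO library and listed at 0 in the other, and at 0.154 and 0.107 TPM with I-BET151. PP2 was thus 13.9-fold above the mean of the 4 ePP libraries for NEUROG3, without overlap, but PP2 is 1 library of another batch and the difference has no replicate check.

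INSM1, a zinc-finger factor of early endocrine cells, was the highest of the 9 factors in PP2. PP2 held 31.4 TPM, the ePP-P9 libraries 0.421 and 0.880 TPM and the ePP-P21 libraries 0.533 and 0.553 TPM, so that PP2 was 52.6-fold above the ePP mean. The DMSO libraries differed from each other, at 0.991 and 0.0323 TPM, and so did the I-BET151 libraries, at 0.683 and 0.0147 TPM. ISL1, a LIM-homeodomain factor of islet cells and of pancreatic mesenchyme, was at 1.71 TPM in PP2. It was listed at 0 in 3 of the 4 ePP libraries and at 0.0269 TPM in the other, and lay between 0.0280 and 0.103 TPM in the DMSO and I-BET151 libraries.

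The PP2 library also had a high level of mesenchymal genes. The 8 genes of that list (COL1A1, COL3A1, PDGFRA, PDGFRB, TWIST1, ACTA2, LUM and DCN) summed to 1378 TPM in PP2, with 8 of 8 at 1 TPM or more, against 103 to 136 TPM in the 4 ePP libraries and 92.7 to 273 TPM in the DMSO and I-BET151 libraries. The part of these cells in the PP2 level of ISL1 was not tested. Of the hormones, only SST, at 1.77 TPM, exceeded 1 TPM in PP2.

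The remaining factors were near the floor of the measurement in all progenitors. NEUROD1, the helix-loop-helix factor that follows NEUROG3, ranged from 0.00806 to 0.219 TPM over the 9 libraries with a median of 0.0595 TPM. NKX2-2, a homeodomain factor required for beta cells, ranged from 0 to 0.563 TPM with a median of 0.137 TPM, and PP2 was the highest. FEV ranged from 0.0706 to 0.725 TPM with a median of 0.230 TPM, a DMSO library being the highest. PAX4, a repressor that favors the beta and delta lineages, was listed at 0 in 4 of the 9 libraries and reached 0.717 TPM in the DMSO library that also had the highest NEUROG3 of the passaged cells. PAX6, the paired-box factor of all islet cells, was listed at 0 in 3 of them and did not exceed 0.00854 TPM.

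**Figure D2:**
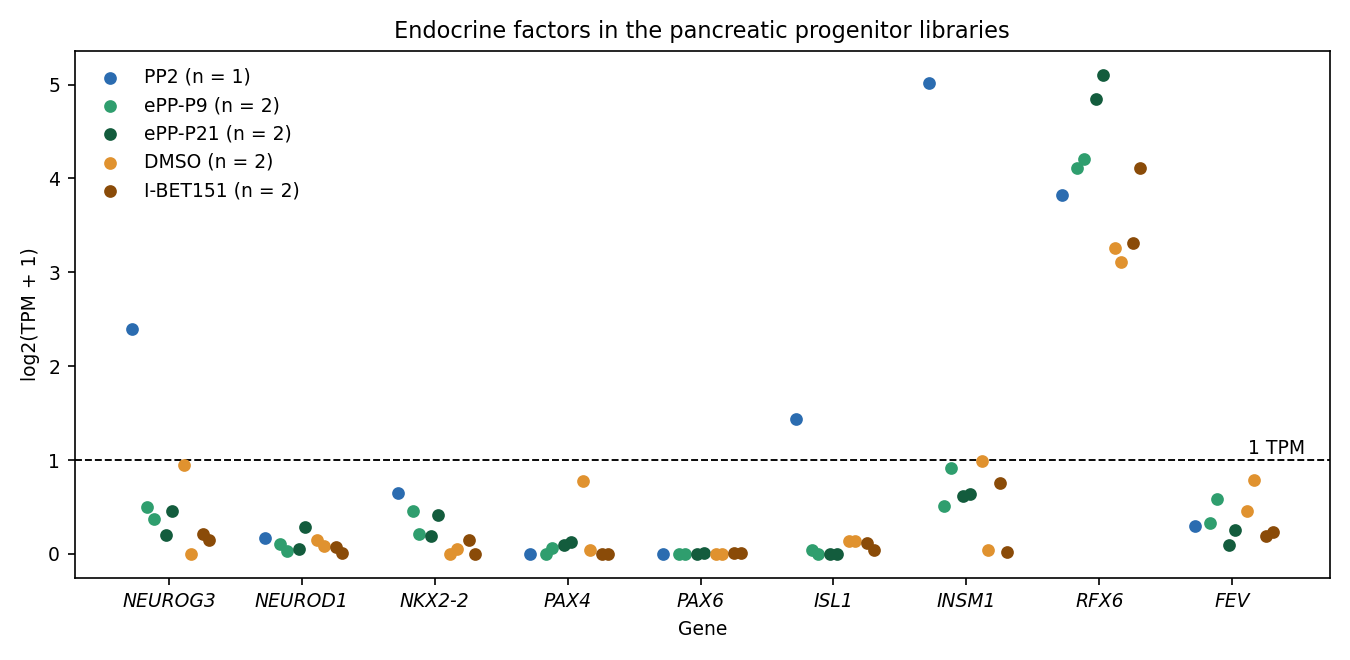
Level of each factor (x axis) in the 9 pancreatic progenitor libraries as log2(TPM + 1) (y axis), 1 point per library, colored by group; the dashed line is 1 TPM. RFX6 lies above the line in all 9 libraries (7.63 to 33.4 TPM), NEUROG3, ISL1 and INSM1 lie above it in PP2 alone, and the other 5 factors lie below it throughout.

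RFX6, a winged-helix factor needed for islet formation and already active in the gut endoderm, was the exception among the 9. Its level was 0.0249 TPM in hPSC, 0.00174 TPM in DE and 13.2 TPM in PP2. The ePP-P9 libraries held 16.3 and 17.5 TPM, and those of ePP-P21 held 27.9 and 33.4 TPM. RFX6 was at 8.61 and 7.63 TPM with DMSO and at 8.96 and 16.3 TPM with I-BET151. The ePP-β libraries lay at 145.5 and 145.8 TPM and SC-β at 75.9 TPM. Ordered by mean, RFX6 ran from ePP-β (146 ± 0.171 TPM, SD, n = 2) through SC-β, ePP-P21 (30.7 ± 3.93 TPM, SD, n = 2), ePP-P9 (16.9 ± 0.819 TPM, SD, n = 2), PP2, I-BET151 (12.6 ± 5.17 TPM, SD, n = 2) and DMSO (8.12 ± 0.687 TPM, SD, n = 2) to hPSC and DE. The steps from ePP-P9 to PP2, from PP2 to I-BET151 and from I-BET151 to DMSO were each smaller than the SD of the I-BET151 libraries.

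**Figure D3:**
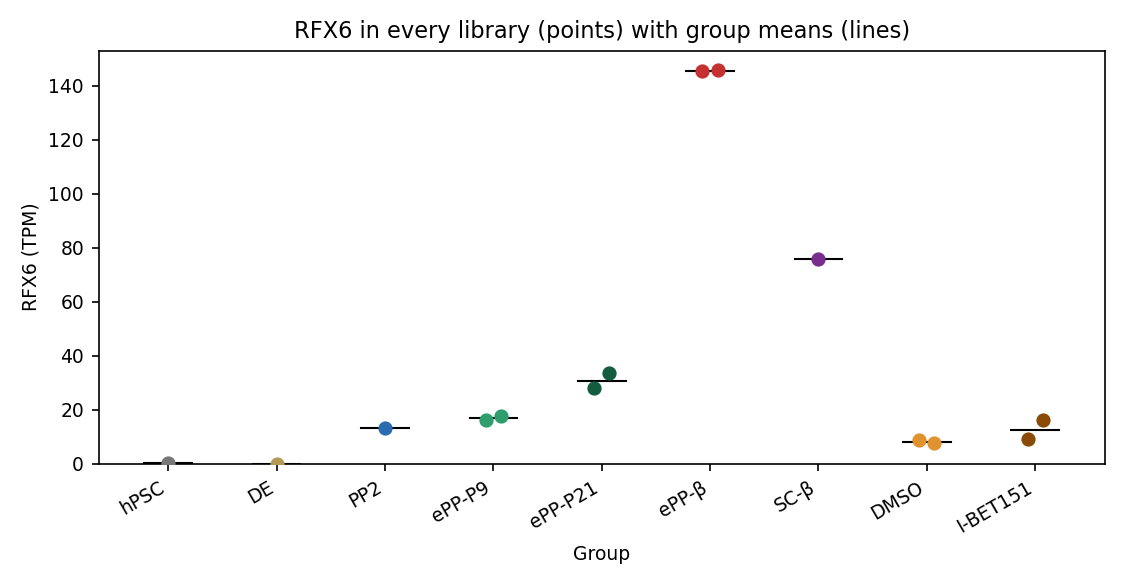
RFX6 level in TPM (y axis, from 0) in each library (points) of the 9 groups (x axis), with the group mean as a line. Both ePP-P21 libraries (27.9 and 33.4 TPM) lie above both ePP-P9 libraries (16.3 and 17.5 TPM), the lower I-BET151 library (8.96 TPM, the other 16.3 TPM) lies next to the DMSO libraries (7.63 and 8.61 TPM), and ePP-β (145.5 and 145.8 TPM) is the highest group.

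The comparison of ePP-β with ePP asks how far the expanded progenitors switched on the endocrine program when they were differentiated. All values of the 9 factors were higher in both ePP-β libraries than in all 4 ePP libraries, a separation that was not counted over all genes. NEUROD1 reached 334 and 317 TPM in ePP-β, where it ranked 351st and 362nd among 19895 protein-coding genes, and at 0.0249 to 0.219 TPM in ePP. FEV was at 317 and 288 TPM against 0.0706 to 0.505 TPM, and INSM1 at 296 and 246 TPM against 0.421 to 0.880 TPM. ISL1 was at 157.8 and 158.1 TPM and PAX6 at 64.9 and 87.8 TPM, both against values at or next to 0. NKX2-2 was at 78.9 and 72.8 TPM against 0.137 to 0.376 TPM. PAX4 was the least even between the ePP-β libraries, at 35.7 and 65.5 TPM against 0 to 0.0939 TPM.

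NEUROG3 stood apart from its targets by its low level. It reached 5.65 and 5.51 TPM in ePP-β, a rank of 10528 and 10825 among the protein-coding genes, and at 0.153 to 0.409 TPM in ePP. Its mean was thus 18.1-fold higher in ePP-β than in ePP, and RFX6 was 6.13-fold higher. In ePP-β the mean level of NEUROD1 (325 ± 12.4 TPM, SD, n = 2) was the highest of the 9, followed by FEV (302 ± 20.3 TPM) and INSM1 (271 ± 35.3 TPM), whose ranges did not overlap that of NEUROD1 although FEV and INSM1 overlapped each other. ISL1 (158 ± 0.230 TPM) and RFX6 came next, then PAX6 (76.4 ± 16.2 TPM) and NKX2-2 (75.8 ± 4.32 TPM), which overlapped, then PAX4 (50.6 ± 21.1 TPM), which overlapped PAX6, and, far below, NEUROG3 (5.58 ± 0.10 TPM).

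The test was limma on log2(TPM + 1) over all 18076 genes that reached 1 TPM in at least 2 of the 6 libraries, and a gene was called when its Benjamini-Hochberg adjusted p was under 0.05 and its log2 fold change beyond 1. All 9 factors were called higher in ePP-β, where 17.9% of all tested genes were called higher. However, 8 of the 9 (all but RFX6) passed the filter only through the ePP-β libraries. The filter thus selected them for higher ePP-β values, and their count is not support for anything beyond the values above. On this scale, which depends on the pseudocount for genes near 0 in ePP, the log2 fold change was 8.23 ± 0.15 (SE) for NEUROD1, 7.93 for FEV, 7.41 for INSM1, 7.30 for ISL1, 6.26 for PAX6, 5.94 for NKX2-2 and 5.55 for PAX4. NEUROG3 had 2.33 ± 0.15. No p-value is given for these 8 factors, because the filter selected them. RFX6, which was measured well above 0 in both groups, rose by 2.63 ± 0.10 (SE, limma, adjusted p = 1.35e-05). The calls were made with 2 ePP-β libraries; without either of them, RFX6 was the only factor that still passed the filter, and it was still called higher.

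Several scaling choices moved the whole comparison. The median log2 fold change over all genes was -0.03, and it became -0.19 after quantile normalization and -0.17 after median centring. Quantile normalization gave 2592 genes higher and 2866 lower in ePP-β in place of 3237 higher and 1783 lower. RFX6 was called higher under both. The neuronal genes, which share regulators such as INSM1 and ISL1 with islet cells, did not all move with the factors. Of 11 listed, 6 were tested and 4 were called higher, beside 17.9% of all genes. STMN2, DCX and ELAVL3 were among them, the last of which passed the filter only through ePP-β. TUBB3 at -0.79 and POU4F1 at -0.36 on the log2 scale were not called. STMN2 was at 0.959 ± 1.04 TPM (SD, n = 4) in ePP and reached 1065 ± 12.1 TPM (SD, n = 2) in ePP-β. The neurogenins NEUROG1 and NEUROG2 and the neuronal factor TLX3 were listed at 0 in both ePP-β libraries, and NEUROG1 was listed at 0 in every library.

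SC-β cells, which were made without an expansion step, allow the factors to be set beside ePP-β, but they are 1 library of another batch, so batch and cell type cannot be told apart and the difference was not tested. Of the 9 factors, 3 lay above both ePP-β libraries in SC-β and 6 lay below both. No such count was made over all genes, so these numbers only describe the 9 factors. NEUROG3 was at 25.2 TPM in SC-β, 4.51-fold above the ePP-β mean. INSM1 was at 575 TPM, 2.13-fold above it and 178th among the protein-coding genes, and NKX2-2 was at 138 TPM, 1.82-fold above it. PAX4 was at 8.68 TPM, so that ePP-β was 5.83-fold higher. ISL1 was at 60.1 TPM, with ePP-β 2.63-fold higher, RFX6 at 75.9 TPM with ePP-β 1.92-fold higher, and NEUROD1 at 182 TPM with ePP-β 1.78-fold higher. PAX6 at 46.5 TPM and FEV at 211 TPM differed least, with ePP-β 1.64-fold and 1.43-fold higher.

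Markers of other cell types also differed in level between the beta-like libraries. Glucagon (GCG), the alpha-cell hormone, was at 74281 TPM in SC-β against 14107 and 13360 TPM in ePP-β. The mesenchymal list summed to 2851 TPM in SC-β and to 93.5 TPM or less in ePP-β, and the progenitor and acinar factor PTF1A was at 61.0 TPM against 0.202 and 0.500 TPM. The part of these markers' cells in the differences above was not tested.

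**Figure D4:**
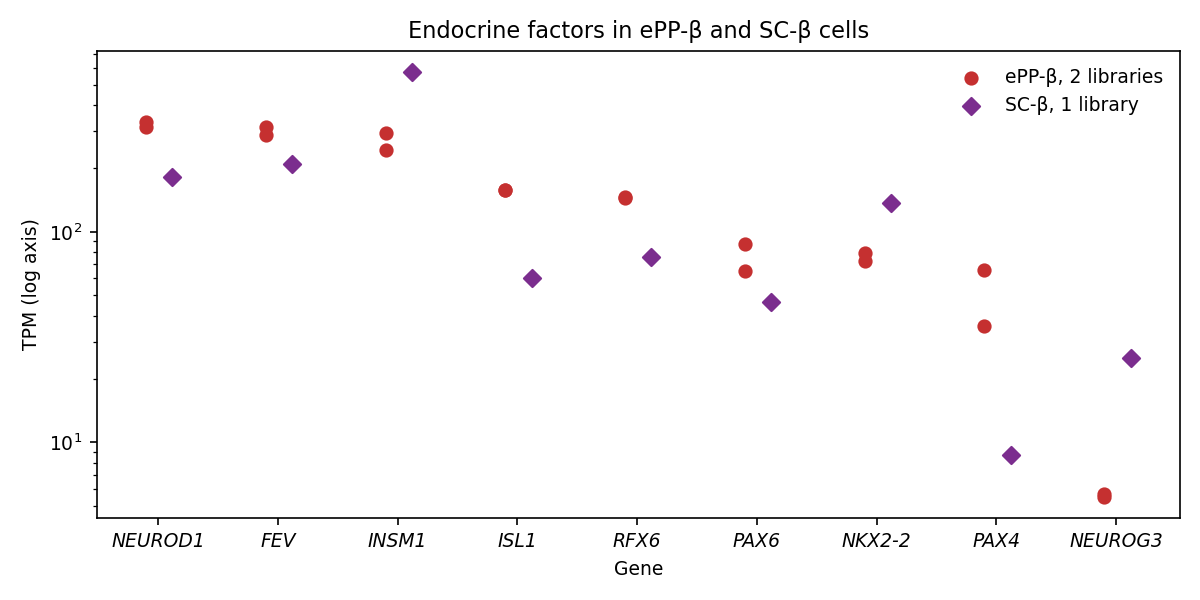
Level in TPM (log y axis) of each factor (x axis, ordered by the ePP-β mean) in the 2 ePP-β libraries (circles) and the SC-β library (diamonds). SC-β lies above both ePP-β libraries for INSM1, NKX2-2 and NEUROG3 and below both for the other 6 factors, with the widest gap downward at PAX4 (8.68 TPM against 35.7 and 65.5 TPM).

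The comparison of ePP-P21 with ePP-P9 asks whether long expansion changed the progenitors. Of the 9 factors, only RFX6 reached the filter, and its log2 fold change was 0.82 ± 0.14 (SE, limma, adjusted p = 0.053), so it was not called. All genes had a median log2 fold change of 0.13 in this comparison, and 1.07% of 15822 genes were called higher and 0.0569% lower at passage 21. The other 8 factors were under 1 TPM at both passages. In the fit without a filter their log2 fold changes ran from -0.28 for FEV to 0.10 for NEUROD1. Values under 1 TPM cannot differ by more than 1 on this scale, so none of these 8 could be called. Both passages therefore held RFX6 and little of the other factors, and a difference in those could not be measured at these levels.

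I-BET151 was compared with DMSO to see how the compound acts on progenitors. Again only RFX6 passed the filter, with a log2 fold change of 0.53 ± 0.39 (SE, limma, adjusted p = 0.583), smaller than the spread between the I-BET151 libraries. All genes had a median log2 fold change of 0.16, and 0.00599% of 16687 genes were called higher and 0.204% lower, while 2536 genes had an unadjusted p under 0.05. Same-numbered DMSO and I-BET151 libraries deviated together (r = 0.675). A fit that also allowed for the replicate number (a replicate block) called 2294 genes in place of 35, and RFX6 was again not called. In a fit over all 10 replicated libraries, in which the other 8 factors also passed the filter, NEUROG3 had a log2 fold change of -0.30 ± 0.29 (adjusted p = 0.571), PAX4 -0.41 ± 0.33 (adjusted p = 0.483), FEV -0.41 ± 0.22 (adjusted p = 0.279) and INSM1 -0.13 ± 0.38 (adjusted p = 0.877). The remaining 4 lay between -0.07 for NEUROD1 and 0.05 for NKX2-2. RFX6 was not called in this fit. The other 8 factors entered it through the ePP-β libraries alone. They were under 1 TPM with DMSO and with I-BET151, so they could not differ by more than 1 on this scale and could not be called. By library values, 4 of the 9 factors were lower in both I-BET151 libraries than in both DMSO libraries, where 18.5% of the 19179 genes of that fit were, and 2 were higher in both, where 27.9% of genes were. The 4 lower ones were FEV, at 0.137 and 0.173 TPM with I-BET151 against 0.371 and 0.725 TPM, NEUROD1, at 0.0549 and 0.00806 TPM against 0.106 and 0.0595 TPM, ISL1, at 0.0807 and 0.0280 TPM against 0.0967 and 0.103 TPM, and PAX4, listed at 0 with I-BET151 against 0.717 and 0.0277 TPM. All of these are under 1 TPM. The 2 higher ones were RFX6 and PAX6, the latter at 0.00854 TPM or less throughout. NEUROG3, INSM1 and NKX2-2 overlapped between the treatments.

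Traces of hormone RNA accompanied these low values. SST was at 2.70 and 2.06 TPM and GAST at 3.57 and 6.89 TPM with DMSO, against 0.154 and 0.109 TPM and 1.09 and 1.19 TPM with I-BET151. INS and GCG were at 3.03 and 9.21 TPM in 1 I-BET151 library and at 0.0199 TPM and 0 in the other. The ePP libraries had all 7 hormones of the list at 0.173 TPM or less.

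The upstream hold on the endocrine program was examined with the Notch targets and ID proteins, which block helix-loop-helix activators, and with REST, which silences neuronal and endocrine genes. Of the 9 genes of this list, all were tested, 6 were called lower in ePP-β than in ePP and none higher, where 9.86% of all tested genes were called lower. ID1 was at 787 ± 135.4 TPM (SD, n = 4) in ePP and 31.1 ± 1.44 TPM (SD, n = 2) in ePP-β, a 25.3-fold lower level with a log2 fold change of -4.60 ± 0.10 (limma, adjusted p = 4.08e-06). ID3 went from 1126 ± 116 to 64.2 ± 4.97 TPM, HEY1 from 46.4 ± 5.53 to 10.2 ± 1.86 TPM and ID2 from 591 ± 84.8 to 174 ± 24.8 TPM. ID4 and REST also fell, by 1.48 and 1.41 on the log2 scale. HES1 had a log2 fold change of -0.72, HEY2 of -0.47 and HEYL of 0.33, and these were not called. The median over the list was -1.48 beside -0.03 for all genes, and the 6 calls were made after quantile normalization, after median centring and without either ePP-β library as well.

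The same repressors summed to more in the progenitors, whose endocrine factors summed to less, than in the beta-like cells. The list summed to 2341 to 3151 TPM in the ePP libraries, 2142 to 2288 TPM with DMSO, 2124 to 3466 TPM with I-BET151 and 2701 TPM in PP2, against 349 and 365 TPM in ePP-β and 581 TPM in SC-β. hPSC and DE did not follow this order: the list summed to 680 and 255 TPM there, with the 9 factors at 2.29 and 0.948 TPM. Within the progenitors this order was not seen either: PP2 had their highest sum of the 9 factors, at 51.5 TPM. Its repressor sum lay inside the range of the ePP libraries, but single genes did not. HES1 (184 TPM), HEY1 (146 TPM), HEYL (7.02 TPM) and ID4 (116 TPM) lay above all 4 ePP libraries in PP2, and ID2 (238 TPM) and, narrowly, REST (15.3 TPM) lay below them. PP2 is 1 library of another batch, and such separations from ePP were not counted over all genes. No gene of the list was called between passages. None was called between I-BET151 and DMSO either, in a fit with few calls of any kind. The 4 Notch targets, ID3 and REST were higher in both I-BET151 libraries than in both DMSO libraries, as were 27.9% of all genes. ID1, ID2 and ID4 overlapped. ID3 was at 920 and 1390 TPM with I-BET151 against 836 and 657 TPM, and REST at 10.4 and 14.6 TPM against 7.84 and 8.81 TPM. HES1 was at 143 and 171 TPM with I-BET151 against 63.04 and 100.2 TPM, and HEY1 at 39.01 and 55.4 TPM against 14.6 and 10.7 TPM. HEY2 was at 16.6 and 19.4 TPM against 7.32 and 8.48 TPM, and HEYL at 2.66 and 3.10 TPM against 1.27 and 1.12 TPM. The log2 fold changes of these 4 Notch targets were 0.97, 1.82, 1.09 and 0.82 (limma, adjusted p = 0.313, 0.116, 0.206 and 0.281). These p-values come from the fit without a replicate block, and a block raised the genes called from 35 to 2294.

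The progenitor regulators that act before or beside NEUROG3 were lower in ePP-β or not called. Of 6 genes, 5 were tested and 3 were called lower, beside 9.86% of all tested genes. ONECUT1, an activator of NEUROG3, was at 19.2 ± 8.39 TPM (SD, n = 4) in ePP and 1.58 ± 0.771 TPM (SD, n = 2) in ePP-β. SOX9 went from 134 ± 22.4 to 56.3 ± 5.94 TPM. GLIS3 and FOXA2 were not called, at -0.35 and -0.07 on the log2 scale. Of the E proteins, the partners of NEUROG3 and NEUROD1, TCF3 had a log2 fold change of -0.88 and TCF12 of -0.07, and neither was called.

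Other endocrine factors split in direction. Of 11 genes, 8 were tested, 5 were called higher in ePP-β, beside 17.9% of all genes, and 2 lower, beside 9.86%. Of the 5 higher ones, ST18, MYT1 and SCRT1 passed the filter only through the ePP-β libraries, which favors such calls. ST18 and MYT1, zinc-finger partners of the endocrine program, reached 5.65 and 12.9 TPM and 5.33 and 7.02 TPM, respectively, in ePP-β, and no ePP library exceeded 0.00555 TPM for either. SCRT1, a neural and endocrine repressor, reached 5.36 ± 0.735 TPM (SD, n = 2), and PROX1 went from 4.09 ± 1.38 TPM (SD, n = 4) to 20.2 ± 2.08 TPM. HES6 and SOX4, which rise early in endocrine precursors, fell by 2.05 and 1.39 on the log2 scale. SOX11, at -0.87, was not called by the fold threshold.

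The islet subtype factors also split in direction. Of 10 genes, 9 were tested, 4 were called higher in ePP-β, beside 17.9% of all genes, and 2 lower, beside 9.86%. All 4 higher ones passed the filter only through the ePP-β libraries. IRX1 and IRX2, which mark alpha cells, rose by 4.97 and 3.94 on the log2 scale. IRX1 reached 29.9 and 34.04 TPM in ePP-β and 105 TPM in SC-β, and IRX2 reached 23.5 and 33.5 TPM and 70.5 TPM. PDX1 and HHEX fell by 1.25 and 1.43. NKX6-1 at -0.51, MNX1 at 0.79 and MAFA, of mature beta cells, at 0.50 were not called, and MAFA was at 2.05 and 1.75 TPM in ePP-β. POU3F4 was listed at 0 in every library.

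FEV and LMX1A belong to the program of serotonin-producing enterochromaffin cells, which also depends on NKX2-2 and NEUROG3, so that list was set beside them. Of 6 genes, 5 were tested and all 5 were called higher in ePP-β, beside 17.9% of all genes. However, 4 of them (all but DDC) passed the filter only through the ePP-β libraries, which favors such calls. TPH1, the enzyme that starts serotonin synthesis, reached 140 and 245 TPM in ePP-β, 37.9 TPM in SC-β and 0.144 ± 0.0948 TPM (SD, n = 4) in ePP. LMX1A reached 140 and 146 TPM in ePP-β and 65.5 TPM in SC-β, and was listed at 0 in 3 of the 4 ePP libraries. The vesicular transporter SLC18A1 reached 34.5 and 36.5 TPM in ePP-β and 27.1 TPM in SC-β. DDC, the decarboxylase, was present in all progenitors and went from 19.8 ± 1.74 TPM in ePP to 389 ± 2.05 TPM in ePP-β. Of the 7 hormones, 6 were tested, all of them through the ePP-β libraries alone, so the filter favored their calls as higher and their count is not support. In ePP-β, INS reached 10916 and 17374 TPM, GCG 14107 and 13360 TPM and GAST 1320 and 1423 TPM.

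**Figure D5:**
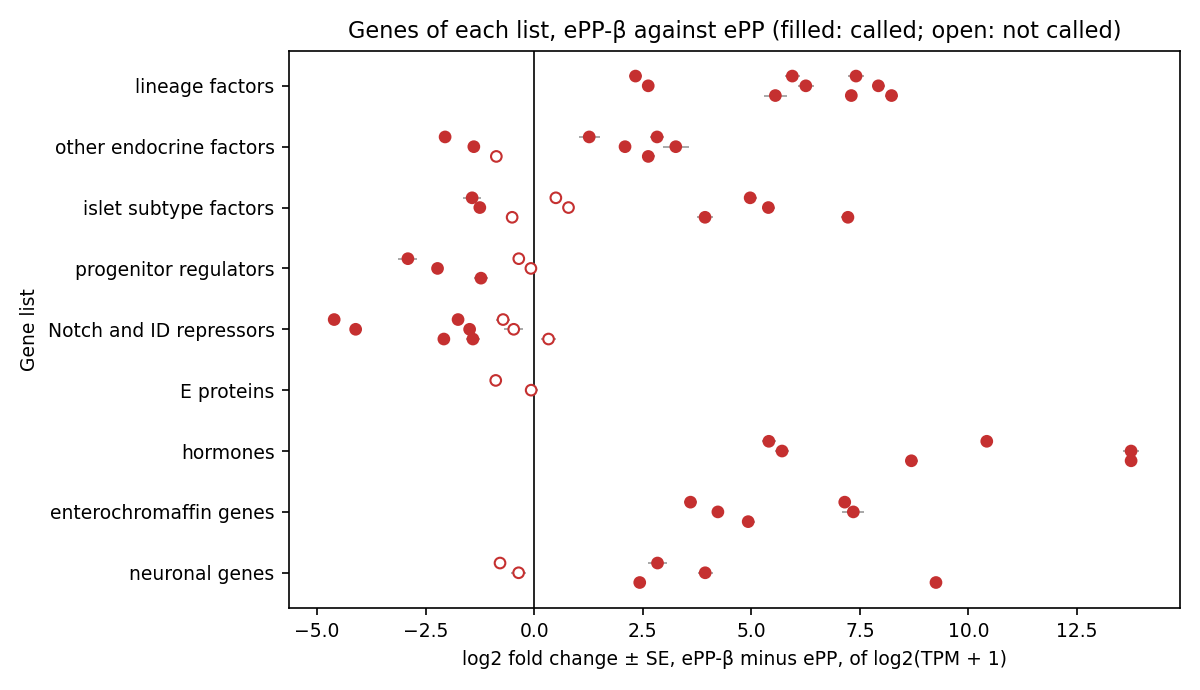
Log2 fold change of log2(TPM + 1) in ePP-β against ePP (x axis; bars, SE) for every tested gene of each list (rows), filled where called and open where not. All 9 lineage factors lie at 2.33 or above, but 8 of them passed the filter only through the ePP-β libraries. Of the 9 Notch and ID repressors, 6 are filled to the left of 0 down to ID1 at -4.60, and other endocrine factors and islet subtype factors hold filled points on both sides.

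Of the 9 genes, 5 overlap another annotated gene, and whether the counting used strand is not given in the sources used here. NEUROD1 shares 12371 bases with CERKL on the same strand, and CERKL was at 35.4 and 37.8 TPM in ePP-β, 12.3 TPM in SC-β and at most 0.365 TPM in the other 11 libraries. PAX6 overlaps ELP4 and PAUPAR on the opposite strand. ELP4 reached 25.4 and 28.8 TPM in ePP-β and 4.86 to 7.73 TPM in ePP, and PAUPAR 6.34 and 5.66 TPM in ePP-β and 0.00492 TPM or less outside beta-like cells. The gene ENSG00000236154 lies opposite NEUROG3 over 517 bases and was at 1.63 and 4.59 TPM in ePP-β. NKX2-2-AS1, opposite NKX2-2, and LINC00608, opposite FEV, did not exceed 0.245 TPM in any library. The levels of CERKL, ELP4, PAUPAR and ENSG00000236154 cannot be told apart from reads of their partners here.

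Across all 14 libraries the members followed each other to different degrees. Pearson correlations of log2(TPM + 1) ran from 0.646 for NEUROG3 with RFX6 to 0.998 for NEUROD1 with FEV, as a description of points that mostly contrast 3 beta-like libraries with 11 others in 3 batches. RFX6 did not exceed 0.728 with any other member. Among 12048 protein-coding genes that reached 10 TPM in some library, SLC24A3 (r = 0.984) and ABCG1 (r = 0.982) were the most like NEUROG3. Like NEUROG3, SLC24A3 was at 3.98 TPM in PP2, 5.84 and 5.40 TPM in ePP-β and 20.8 TPM in SC-β. LMX1A (r = 0.999) and the potassium channel KCNK16 (r = 0.999) were close to NEUROD1, and KCNK16 (r = 0.998) also headed the list for FEV. BTBD17 was the most like NKX2-2 (r = 0.997), CLXN the most like PAX4 (r = 0.992), NELL1 the most like PAX6 (r = 0.998), SPOCK3 the most like ISL1 (r = 0.998), CNTN1 the most like INSM1 (r = 0.990) and REEP1 the most like RFX6 (r = 0.975).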

How the data were processed

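Gene-level TPM of 14 libraries in 9 groups, made from total RNA with the NEBNext Ultra kit, were used as deposited. Per the submitters' processing notes, the authors aligned reads with HISAT2 2.1.0 to hg38; per the study's methods, StringTie then estimated TPM, reads per transcript length scaled to the same total in every library. The annotation release and strand setting are not given in the sources used here.

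The members and gene lists were chosen with earlier results of these data known. From the deposited TPM values, log2(TPM + 1) was fitted with limma 3.58.1 (R 4.3.3, trended variance), using genes at 1 TPM or more in at least 2 libraries of the fit, in 3 comparisons: ePP-β against ePP of both passages, ePP-P21 against ePP-P9, and I-BET151 against DMSO. P-values were adjusted over all genes tested (Benjamini-Hochberg), and a gene was called at an adjusted p under 0.05 and a log2 fold change beyond 1, the study's thresholds. Single-library groups (hPSC, DE, PP2, SC-β) entered no test. The fit was tested on simulated data. Besides the 9 members, the text names up to 4 called genes per list with the largest change and a mean of 5 TPM or more, and genes most like or overlapping a member; other list genes were named after their values were seen. Identifiers (60370 of 60624) were matched to GENCODE release 44; promoters came from RefSeq. Alternatives varied the pseudocount, filter, scaling, samples and threshold. Some genes of the lists enter the counts but are not reported here.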

Additional observations from a re-analysis of the deposited data

How the results depend on the processing

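For ePP-β against ePP, RFX6 was called higher under all 16 alternatives. The other 8 factors pass the filter only through ePP-β, so it selected them for higher ePP-β values and their calls say nothing about stability. Without ePP-β replicate 1 or 2, the factors called went from 9 to 1 (RFX6 alone passes the filter with 1 ePP-β library). Genes called numbered 5020, and 10381 by adjusted p alone. Without 1 library they ranged from 3466 to 5066.

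For ePP-P21 against ePP-P9, 178 genes were called. This became 0 with no filter or median centring, 13 with quantile normalization, 1 in the fit of 10 replicated libraries and 309 by adjusted p alone; leaving out 1 library gave 0 (without ePP-P21 replicate 1) to 478 (without ePP-P9 replicate 2). RFX6 ran from 0.61 to 0.95 (log2) over 12 alternatives (adjusted p 0.0381 to 0.484) and was never called.

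For I-BET151 against DMSO, 35 genes were called, 0 with a pseudocount of 0.1 or 0.01 or no filter, 120 with median centring, 138 with quantile normalization, 1673 in the fit of 10 libraries, and 107 (without DMSO replicate 1) to 1034 (without I-BET151 replicate 2) with 1 library left out. RFX6 ran from 0.13 to 0.92 (adjusted p 0.235 to 0.963) and was never called.

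A lone library left in a group was assumed to vary like the others. The cause of these shifts was not tested. Library numbers are shared by 2 pairs only and were not taken as pairing; with a replicate block, 5032, 66 and 2294 genes were called in the 3 comparisons, and no call of a factor changed. Same-numbered libraries deviated together for DMSO and I-BET151 (r = 0.675) but not for ePP-P9 and ePP-P21 (r = -0.0093).

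At a level of 0.5 TPM in place of 1 TPM, 2 of the 9 factors rather than 5 were under it in all progenitor libraries, and 4 rather than 8 in DMSO. TPM keeps no depth, so values under 1 TPM carry no known counting error.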
